A study of Mus musculus with 19 samples.

Results

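The comparison set hindgut epithelium of embryonic day 12 (E12) against that of embryonic day 11 (E11) in the mouse, over all genes. It used 4 libraries, 2 at E11 and 2 at E12, of the 19 samples of the series, and the members are these libraries by their age label. All 4 came from wild-type CD1 embryos, with no treatment listed as theirs. Hindguts were digested in 0.25% trypsin for 30 minutes, Epcam-positive cells were collected by flow cytometry, and total RNA was made into SMARTer-Seq v4 libraries read as single ends of 75 bases. The 2 libraries at E14 and 2 at E16, made in the same way by their labels, entered the fit to estimate the spread and are shown for the later levels. The E16 pair stood apart from the other hindgut libraries. It had fewer reads on genes, 16861928 and 13826958, and 3.09 and 3.5% of its counts were listed as ambiguous, against 0.812 to 0.866%. The other samples of the series are RNA, chromatin and single-cell libraries of colon stem cells or regenerating colon cells, and they enter nothing here. The labels call the replicates biological and do not say how many embryos or litters went into each, so a p-value measures the spread between these libraries.

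The hindgut is the most caudal part of the gut tube and gives rise to the distal colon, the rectum and, through the cloaca, part of the urogenital tract. At this stage its lining is a simple tube of endoderm. It takes its posterior identity from Hox and Cdx transcription factors, signals to the surrounding mesenchyme through Hedgehog ligands, and has not yet formed villi or crypts. The nephric ducts, which are epithelial and carry Epcam, join the cloaca and send out the ureteric buds close by. Primordial germ cells migrate through the wall of the hindgut on their way to the gonads, and they carry Epcam too. The sort on Epcam therefore does not by itself separate gut endoderm from these cells.

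The 4 libraries held 26693704 to 30583908 reads on genes, and levels below are CPM, reads scaled to a common library total after TMM scaling (a scaling by the bulk of the genes). Epcam stood at 1112 and 910.5 CPM at E11 and at 1021 and 1226 at E12, so the 2 ages overlapped. Markers of posterior gut endoderm were present at both ages: the homeobox gene Cdx2 stood at 149.8 and 102 CPM at E11 and at 163.9 and 223 at E12, and Hoxd13, of the most caudal Hox group, at 49.6 and 62.2 against 42.2 and 45.6. Sox17, a gene of early definitive endoderm, had no read at E11 and 20 reads at E12, all in replicate 1. The female transcript Xist and the Y-linked Ddx3y were present in every library, with Xist at 104 to 162 CPM and Ddx3y at 31.8 to 63.8. Libraries of the same age differed more at these ages than later: the coefficient of variation between replicates was 0.516 at E11 and 0.383 at E12, against 0.139 at E14 and 0.16 at E16. In E12 replicate 1 germ cell genes stood apart from all other libraries. In E11 replicate 2 some genes of basal epithelium stood apart from E11 replicate 1 and both E12 libraries, though not from E14. The values are given beside the results they touch.

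Of 24062 genes, 16481 passed the filter on low counts. The quasi-likelihood test called 434 of them at an adjusted p under 0.05 (2.63% of the genes tested), 290 higher at E12 (1.76%) and 144 lower (0.874%), and 285 of these changed at least 2-fold. In no called gene did the libraries of the 2 ages overlap. Of the 144 falls, 127 had a mean of 10 CPM or more at E11, and 197 of the 290 rises reached a mean of 10 CPM or more at E12. Among the rises, 42 genes had no read in either E11 library, and apart from Cdh17 their mean at E12 was 0.265 to 3.22 CPM. Over all tested genes, both E12 libraries lay above both E11 libraries in 22.5% and below both in 20.9%, and the median change was 0.0049 on the log2 scale.

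**Figure D1:**
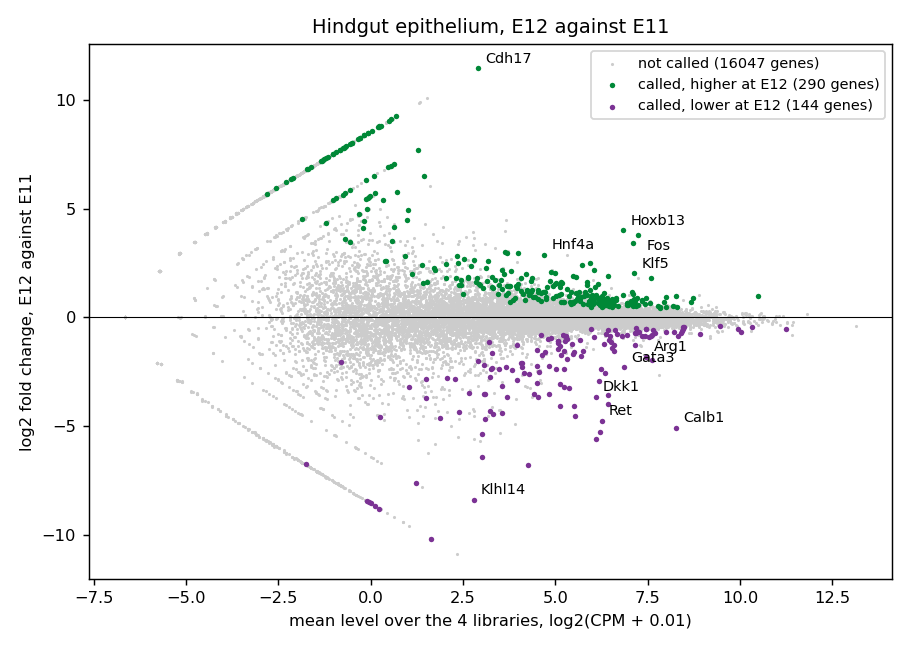
Fitted log2 fold change of each of the 16481 genes, E12 against E11 (vertical axis), over its mean CPM in the 4 libraries on a log2 scale (horizontal axis). Green points are the 290 genes called higher and purple points the 144 called lower at E12; the diagonal streak of green points at the upper left holds genes without a read at E11, whose fitted change depends on the prior count.

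The spread in these tests was estimated with the tighter E14 and E16 pairs. With the 4 libraries of E11 and E12 alone, 54 of 14816 genes were called (0.364%), 13 higher and 41 lower, and 49 of the 54 were also called by the fit of 8 libraries. The split of calls by direction thus moved from 66.8% to 24.1% higher at E12. Of 93 called genes followed singly, 26 passed with 4 libraries, and 19 passed under each of 15 alternatives. Among these were Cdh17, Klf5, Hnf4a, Ugt2b35, Gne, Junb, Jun and Rbp4 of those that rose, and Calb1, Ret, Gata3, Dkk1, Kremen2, Tcf7, Id4, Aldh1a1 and Mest of those that fell. For most other genes said to have risen or fallen, the largest adjusted p over these alternatives follows in the text as "largest". Genes named outside the fixed naming rule carry no such value.

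Some transcription factors of intestinal epithelium rose. Of 26 on the list, all tested, 7 rose and 1 fell, and the median log2 change was 0.42 against 0.0049 for all genes. The list held 2 rises with 4 libraries alone, 3 without E12 replicate 2, 4 without E12 replicate 1 or either E14 library, and 10 without E11 replicate 2. Hnf4a (chromosome 2, 163506811 to 163572907 in GRCm38), a nuclear receptor that drives enterocyte genes, stood at 7.18 and 5.23 CPM at E11 and at 31.9 and 59.3 at E12. Both E12 libraries were above both E11 libraries, with a log2 fold change of 2.88 ± 0.30 (SE) and an adjusted p of 0.00748. It went on to 367 and 338 CPM at E14. Klf5 (chromosome 14, 99298691 to 99313412), a Krüppel-like factor needed for gut epithelial maturation, stood at 60.3 and 50.8 CPM at E11 and at 211 and 242 at E12, a log2 fold change of 2.03 ± 0.12 (SE), adjusted p = 0.000804. The replicates of Klf5 lay close together at both ages, and with 4 libraries alone the adjusted p was 0.00915.

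The 250 bases before the 2 starts of Hnf4a that the RefSeq table (GRCm38.p6) lists are shown, since this gene was among the largest rises. They are chr2:163506607-163506856 and chr2:163546905-163547154, plus strand, written 5′ to 3′, with matches to searched motifs in capitals. The gene span given above begins at 163506811. The last bases of the first window, with its GGGCGG, and the whole second window therefore lie within that span.
Hnf4a, start 1: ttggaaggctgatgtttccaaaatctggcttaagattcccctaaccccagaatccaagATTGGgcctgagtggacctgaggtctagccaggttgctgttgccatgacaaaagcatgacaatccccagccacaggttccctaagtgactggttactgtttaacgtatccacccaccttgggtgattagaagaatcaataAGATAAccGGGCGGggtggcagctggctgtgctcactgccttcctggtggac
Hnf4a, start 2: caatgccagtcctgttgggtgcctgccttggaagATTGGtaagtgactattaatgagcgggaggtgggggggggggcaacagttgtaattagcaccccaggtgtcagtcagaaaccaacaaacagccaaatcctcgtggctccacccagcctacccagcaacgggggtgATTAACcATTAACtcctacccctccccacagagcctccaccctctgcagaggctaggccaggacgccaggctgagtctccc
The capitals mark CCAAT (written ATTGG on the other strand), AGATAA (the site type of GATA factors) and GGGCGG (known as the GC box) before start 1, and CCAAT and 2 copies of GTTAAT (on the other strand ATTAAC) before start 2. GTTAAT was found in 4.32% of the promoters of all tested genes in the table, in 6.02% of those of genes that rose and in 2.94% of those of genes that fell. The read counts are per gene and do not say which start was used.

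The other transcription factors moved by less or at lower levels. Isx, a homeobox gene of intestine that limits vitamin A uptake, rose from 12.6 and 6.33 CPM to 28.7 and 32.7 (log2 1.70 ± 0.28, adjusted p = 0.0259). Its call was lost without any 1 of the E12, E14 or E16 libraries and with 4 libraries alone, where the adjusted p was 0.164. Klf4, a factor of differentiating epithelium, rose from 5.41 and 3.21 CPM to 22.7 and 15.8 (log2 2.17 ± 0.26, adjusted p = 0.0115), and its largest adjusted p, 0.125, came with 4 libraries alone. Sox9, a progenitor factor named after its values were seen, went from 188 and 187 CPM to 295 and 316 (log2 0.71 ± 0.12, adjusted p = 0.0279).

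Cdx1, the caudal homeobox gene that later marks the intestine, went the other way. It fell from 18.0 and 24.5 CPM at E11 to 1.60 and 3.17 at E12 (log2 -3.15 ± 0.28, adjusted p = 0.00491, and 0.0667 with 4 libraries), then stood at 137 and 126 at E14 and at 518 and 451 at E16. Its lowest age was thus E12. Its relative Cdx2 did not pass the test (log2 0.62 ± 0.31, adjusted p = 0.308), although both E12 libraries lay above both at E11. Among the rest of the list Foxa1, a pioneer factor of endoderm, had 537 and 511 CPM against 718 and 674 (adjusted p = 0.0641), and Foxa2 had 58.0 and 66.8 against 67.7 and 87.3 (adjusted p = 0.381).

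**Figure D2:**
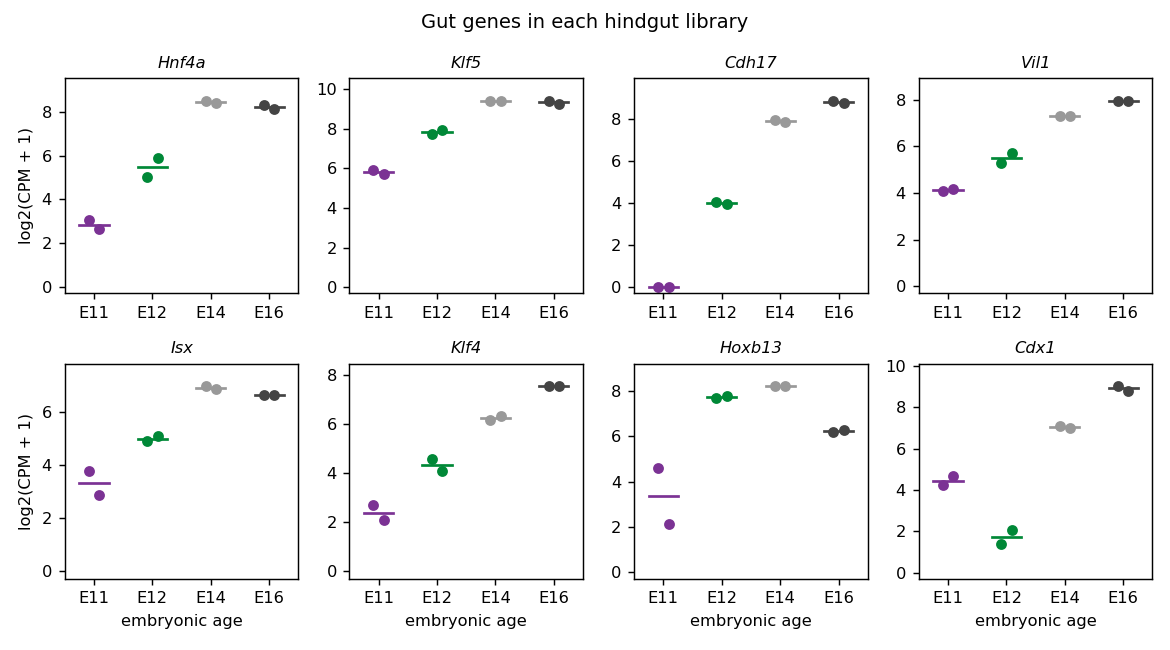
Level of 8 gut genes as log2(CPM + 1) (vertical axis) in each hindgut library at the 4 ages (horizontal axis). Points are libraries, 2 per age, and the bar is their mean: Hnf4a, Klf5, Cdh17, Vil1, Isx, Klf4 and Hoxb13 lie higher at E12 than at E11 in both libraries, and Cdx1 lies lowest at E12.

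Some surface genes of enterocytes rose. Of 28 genes of the brush border and of transport, 27 were tested, 7 rose and 1 fell. The clearest was Cdh17 (chromosome 4, 11758157 to 11817905), the cadherin of intestinal epithelium, with no read in either E11 library and 15.5 and 14.5 CPM (845 reads) at E12. Against a floor of 3 reads over both E11 libraries it was at least 288-fold higher at E12 (adjusted p = 9.66e-05, and 0.0203 with 4 libraries). It continued to 251 and 230.3 CPM at E14 and to 471 and 434 at E16. Vil1, the actin bundler of microvilli, rose from 15.8 and 17.2 CPM to 38.0 and 52.2 (log2 1.45 ± 0.15, adjusted p = 0.0081), with 0.0934 with 4 libraries as its largest value. Car2, a carbonic anhydrase, rose from 13.7 and 22.5 CPM to 60.9 and 48.1, Tspan8, a tetraspanin, from 40.3 and 31.2 to 90.3 and 179.5, and Dpp4, a surface peptidase, from 111 and 88.8 to 169 and 189.

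Car2, Tspan8 and Dpp4 had adjusted p of 0.0184, 0.0229 and 0.0221, and the largest over the alternatives were 0.107, 0.0934 and 0.109. The remaining 2 rises were Gucy2c, the guanylin receptor, from 37.2 and 19.5 CPM to 90.3 and 83.6, and the microvillar protocadherin Cdhr2, which stayed at 1.39 CPM or lower; both were named after their values were seen. Espn, an actin bundler with a broad range of tissues, fell from 191 and 184 CPM to 119 and 118 (log2 -0.66 ± 0.10, adjusted p = 0.02, largest 0.0988). Slc26a3 and Slc9a3, of mature colonocytes, had no read in any of the 4 libraries, and Slc9a3 was only at 1.417 and 1.279 CPM at E16. Other members of the list were present and not called. Fabp1 stood at 63.38 and 34.08 CPM at E11 and at 24.38 and 26.31 at E12. Car4 stood at 3.644 and 7.336 CPM against 1.379 and 0.2788. With any 1 library left out the list held 2 to 9 rises, the fewest without E14 replicate 1, and with 4 libraries alone only Cdh17 was called.

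Among 26 genes of adhesion and simple keratins, 2 rose and none fell, with a median log2 change of 0.22. Cdh1, E-cadherin, stood at 303 and 315 CPM at E11 and at 481 and 538 at E12 (log2 0.72 ± 0.08, adjusted p = 0.00951, and 0.0667 with 4 libraries), and at 1439 and 1466 at E14. Lamb3, a subunit of the laminin under epithelia, rose from 9.62 and 10.5 CPM to 27.9 and 19.7 (adjusted p = 0.0238, largest 0.199). Of 17 genes of the secretory lineage edgeR called none, with 3 at an unadjusted p under 0.05 and 1 called by DESeq2. Of 22 enteroendocrine genes 1 was: Nts, neurotensin, had no read at E11 and 0.98 and 0.697 CPM at E12, at least 16-fold higher (adjusted p = 0.0172, largest 0.251).

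Some Hox genes of the anterior and middle groups fell. Hox genes are expressed along the body axis in the order in which they lie within each cluster. Groups 1 to 8 mark anterior and middle levels and groups 9 to 13 caudal levels. Of 23 genes of groups 1 to 8, all tested, 5 fell and none rose, 22 had a fitted change below 0, and the median was -1.72. Of 13 tested genes of groups 9 to 13, 1 rose, none fell, and the median was 0.016, which was -0.0059 under another scaling (RLE), -0.45 without E11 replicate 1, -0.27 without E12 replicate 2 and -0.19 with no low-count filter. Summed over the list, groups 1 to 8 stood at 508 and 472 CPM at E11 and at 202 and 166 at E12. Groups 9 to 13 stood at 454 and 440 against 622 and 658. Within the latter sums, Hoxb13 alone held 23.33 and 3.343 CPM at E11 and 209.7 and 218.9 at E12.

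Hoxb13 (chromosome 11, 96194316 to 96196610), the last gene of its cluster and a gene of the rectum, was the 1 rise in the caudal group. It stood at 23.3 and 3.34 CPM at E11 and at 209.7 and 219 at E12 (log2 4.02 ± 0.69, adjusted p = 0.0311). The 2 E11 libraries differed from each other more than the 2 E12 libraries did. The call was lost without any 1 of the E12, E14 or E16 libraries and with 4 libraries alone, where the adjusted p was 0.115. Hoxb13 remained at 297 and 296 CPM at E14 and stood at 73.1 and 78.2 at E16. Hoxa13 and Hoxd13, of the same group, did not pass: Hoxa13 had 7.93 and 11.6 CPM against 15.5 and 18.8 (adjusted p = 0.178), and Hoxd13 an adjusted p of 0.467.

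The 5 falls were Hoxb5, Hoxd8, Hoxb6, Hoxd3 and Hoxb2. Hoxd8 went from 63.5 and 62.2 CPM to 16.4 and 17.4 (log2 -1.89 ± 0.25, adjusted p = 0.0141, and 0.0251 with 4 libraries), and its largest was 0.0525, the call being lost without either E12 library. Hoxb6 went from 54.1 and 40.1 CPM to 10.3 and 9.62 (adjusted p = 0.0259, largest 0.0994), and Hoxb5 from 27.0 and 27.3 to 7.37 and 5.33 (adjusted p = 0.0119, and 0.0667). Hoxd3 fell by 1.58 and Hoxb2 by 1.72 on the log2 scale (adjusted p = 0.0267 and 0.0466, largest 0.0988 and 0.15). Without E12 replicate 2, 1 of the list was called, without E12 replicate 1, 3, without E14 replicate 1 or 2, 2 each, and with 4 libraries alone 2. Hoxa7, at 26.9 and 23.7 CPM against 25.8 and 23.1, and Hoxa6, the gene above 0, overlapped between the ages. Nephric duct genes fell over the same step, as given next, and their part in the fall of Hox genes was not tested.

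**Figure D3:**
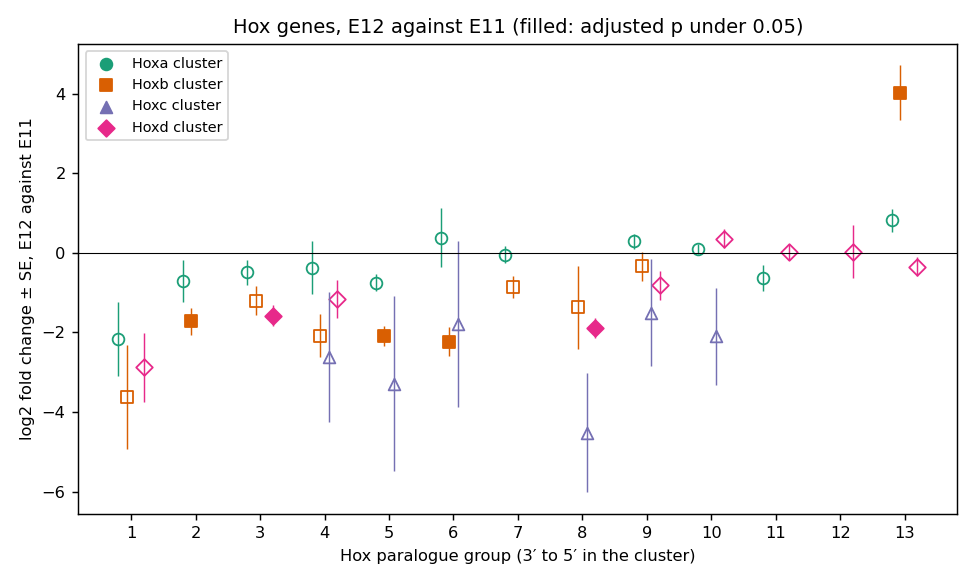
Fitted log2 fold change with its SE, E12 against E11 (vertical axis), of the 36 tested Hox genes by paralogue group (horizontal axis), with shape and colour for the cluster and filled symbols for an adjusted p under 0.05. Of groups 1 to 8, 22 of 23 genes lie below 0; Hoxb13 stands alone above the others of groups 9 to 13.

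Some genes of the nephric duct and ureteric bud fell steeply. Of 19 on the marker list, 6 fell, none rose, and the median log2 change was -2.71. Their summed level was 2343 and 2013 CPM at E11 and 836 and 822 at E12, then 793 and 772 at E14. Calb1 (chromosome 4, 15881264 to 15906709), a calcium-binding protein of the ureteric epithelium, stood at 686 and 519 CPM at E11 and at 15.1 and 20.3 at E12, a log2 fold change of -5.09 ± 0.30 (SE), adjusted p = 0.00191. Calb1 was without a read in either library at E14.

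Ret (chromosome 6, 118151748 to 118197744), the receptor through which the ureteric bud grows towards the kidney mesenchyme and which enteric neural crest also uses, stood at 160 and 134 CPM at E11 and at 8.89 and 2.06 at E12 (log2 -4.75 ± 0.59, adjusted p = 0.0115). Gata3 (chromosome 2, 9857078 to 9887953), a transcription factor of the duct upstream of Ret, went from 200.2 and 187 CPM to 38.7 and 39.6 (log2 -2.30 ± 0.13, adjusted p = 0.000804). Npnt, a matrix ligand made by the bud, fell from 219 and 181 CPM to 92.1 and 75.2 (adjusted p = 0.0168, and 0.0678 without E12 replicate 2). Emx2, a homeobox gene of the urogenital epithelium, fell from 100.4 and 76.0 CPM to 6.35 and 1.22 (adjusted p = 0.0477). That call was lost with 4 libraries, without E11 replicate 1 and without any 1 of the E14 or E16 libraries, with an adjusted p of up to 0.0793. The count of falls on the list was 5 to 9 when any 1 library was left out, and 6 with 4 libraries alone, Wnt9b taking the place of Emx2.

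Other genes of the duct lay lower at E12 in both libraries without passing the test. Pax2, its defining transcription factor, had 15.8 and 10.1 CPM against 1.02 and 0.348 (adjusted p = 0.059), Lhx1 33.7 and 30.9 against 5.48 and 1.67 (0.0507), and Wnt9b 43.0 and 33.3 against 3.99 and 2.06 (0.146). Etv5, a target of FGF and Ret signalling, lay the other way, at 80.1 and 89.4 CPM at E11 and 149 and 123 at E12 (log2 0.68 ± 0.15, adjusted p = 0.066). The list held 1 rise under DESeq2 and 1 with no low-count filter. Other members were not called either: Wfdc2 was at 271 and 255 CPM at E11 and at 228 and 260 at E12, and Bmp7 at 79.5 and 88.2 against 72.7 and 74.0. In a sorted bulk sample, fewer cells of a type and less RNA per cell cannot be told apart.

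The 250 bases before the start listed for Gata3 are shown, as it was the duct gene with the smallest adjusted p. This window lies inside the gene span given above, 9857078 to 9887953. It is therefore not at the outer end of the gene, and the read counts do not say which start was used. They are chr2:9878601-9878850, minus strand, from the same RefSeq table.
Gata3, start 1: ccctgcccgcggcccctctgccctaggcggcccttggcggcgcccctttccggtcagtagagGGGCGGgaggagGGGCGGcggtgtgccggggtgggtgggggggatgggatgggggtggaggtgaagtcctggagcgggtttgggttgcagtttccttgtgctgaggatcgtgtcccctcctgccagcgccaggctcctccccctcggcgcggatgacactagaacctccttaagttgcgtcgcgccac
The capitals mark 2 copies of GGGCGG, the GC box, which was found in 55.5% of all promoters in the table, 51.9% of those of genes that rose and 57.8% of those that fell. No match to AGATAA, to CATAAA (the site type of CDX factors) or CTTTGAT (a TCF/LEF-type site) was found in this window.

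**Figure D4:**
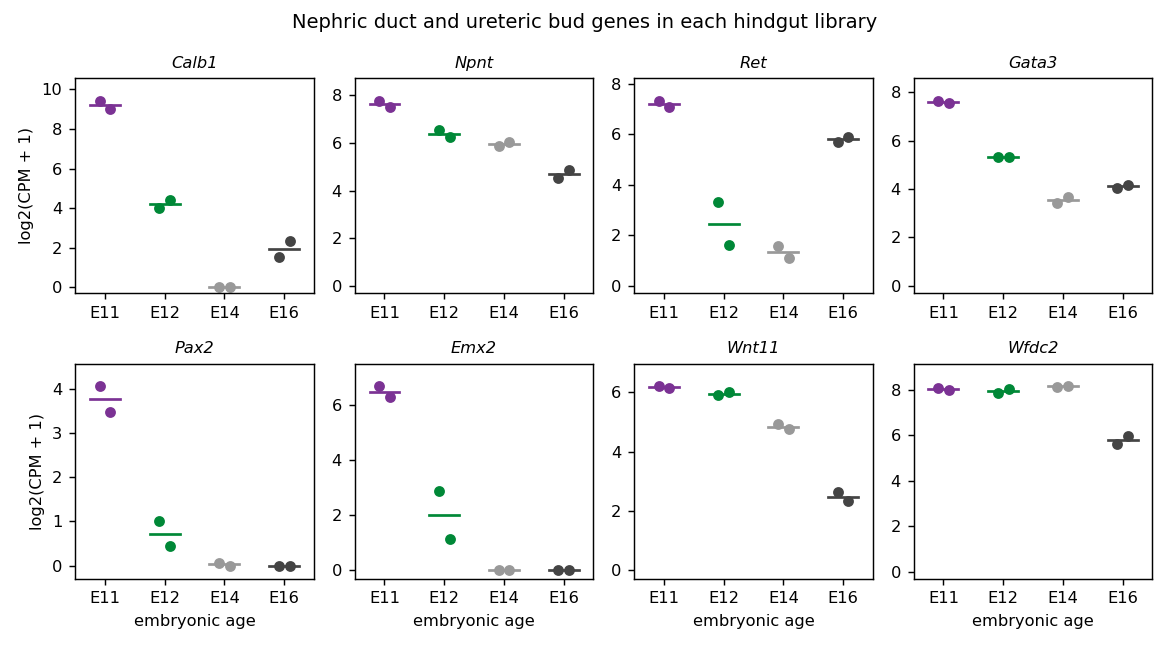
Level of 8 nephric duct and ureteric bud genes as log2(CPM + 1) (vertical axis) in each hindgut library at the 4 ages (horizontal axis), with points for libraries and a bar for their mean. Calb1, Npnt, Ret, Gata3, Pax2 and Emx2 lie lower at E12 than at E11 in both libraries, while Wfdc2 overlaps between these ages and Wnt11, at 73.1 and 70.5 against 58.9 and 62.8 CPM, was not called.

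Germ cell genes set 1 library apart. Summed over 29 listed genes, they stood at 287 and 443 CPM at E11, at 1217 in E12 replicate 1 and at 402 in E12 replicate 2. Dppa3, a gene of primordial germ cells, was at 22.8 and 46.0 CPM at E11 and at 130.9 and 12.1 at E12 (adjusted p = 0.599), so the ages overlapped. Ddx4, a germ cell helicase, was at 0.827 and 3.21 against 22.4 and 1.57, Dazl at 2.82 and 15.9 against 121 and 18.2, and Dppa5a at 19.3 and 40.9 against 182 and 16.7.

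The median log2 change of the 27 tested genes was 1.05 and turned to -0.57 without E12 replicate 1. Of these, 2 were called higher: Prdm1, from 73.1 and 67.9 CPM to 126 and 133, and the receptor Kit, from 89.9 and 102 to 152 and 149.7 (adjusted p = 0.00924 and 0.0232, largest 0.0704 and 0.132). Both were alike in the 2 E12 libraries and were at 83.5 CPM or more at E14 and E16, where Dppa3 was at or near 0. Red cell genes also differed between the E12 replicates, with Hbb-y, an embryonic globin, at 229.8 and 16.7 CPM, against 221 and 98.7 at E11. Kitl, the ligand of Kit, which was named after its values were seen, fell from 144 and 110 CPM to 17.1 and 32.3 (adjusted p = 0.0168, and 0.0489 with 4 libraries).

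Some genes of basal and squamous epithelium set E11 replicate 2 apart among the 4 libraries compared. Trp63, their defining factor, stood at 3.76 and 39.5 CPM at E11 and at 9.14 and 4.25 at E12. Krt5 was at 0.0376 and 42.1 against 0.109 and 2.09, and Krt14 at 0.0376 and 27.4 against 0.0726 and 0.488. The 2 E11 libraries straddled both E12 libraries for each of these genes. At E14, Trp63 stood at 90.55 and 144.4 CPM, Krt5 at 38.18 and 74.43 and Krt14 at 5.659 and 7.547. Of the 25 tested genes of the list only Tfap2a, a factor of surface ectoderm, was called, falling from 10.9 and 12.04 CPM to 1.56 and 0.523 (adjusted p = 0.0402, largest 0.118). The median of the list was -0.67, and 0.68 without E11 replicate 2, with 5 rises and 2 falls, against 10 falls without E11 replicate 1. Cxcl14, a chemokine of surface epithelium that was among the 12 largest falls, had 11.3 and 64.0 CPM at E11 in the same order and 0.181 and 0.488 at E12 (adjusted p = 0.0219, largest 0.0786). Its call was lost with 4 libraries alone and without any 1 of the E12 or E16 libraries.

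Markers of the other cell types gave few calls. Of 18 macrophage and leukocyte genes 1 was called, the chemokine receptor Cx3cr1, with no read at E11 and 1.16 and 0.383 CPM at E12, at least 14.6-fold higher (adjusted p = 0.0466, largest 0.271). Macrophage and leukocyte genes summed to 10.9 and 5.26 CPM at E11 and to 24.1 and 7.56 at E12. Endothelial genes summed to 55.8 and 62.7 against 69.8 and 39.9, with none of 14 called by edgeR, 4 at an unadjusted p under 0.05 and 1 called by DESeq2. The mesenchyme list stood at 1494 and 1247 CPM in sum at E11 and at 2168 and 2528 at E12, and 2 of its genes rose: Postn, periostin, at 1111 and 817 against 1662 and 2149 (adjusted p = 0.028), and Vim, vimentin, at 131 and 108 against 207 and 199.5 (adjusted p = 0.0229). Each was largest at 0.0999 over the alternatives. Postn held most of the summed level of the list in each library compared. The defining collagen Col1a1 stood at 1.28 and 7.66 CPM against 9.83 and 3.10 and was not called, and 14 of the 25 mesenchyme genes had a change below 0. The median of the list was -0.15, and without E12 replicate 1 it was -0.97, with 7 falls and 1 rise.

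Neural genes summed to 264 and 221 CPM at E11 and 135 and 143 at E12, Ret included. Ednrb, an endothelin receptor, rose from 32.3 and 36.1 CPM to 76.3 and 79.5 (adjusted p = 0.00812, and 0.063 with 4 libraries). Among genes of liver and yolk sac endoderm 2 of 19 rose, Apoa1, from 23.3 and 14.2 CPM to 55.3 and 84.9 (adjusted p = 0.0215, largest 0.0915), and Rbp4, given below. Afp, the fetal albumin, had 346 and 246 CPM against 392 and 679 (adjusted p = 0.123). The part of these cell types in the results was not tested.

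**Figure D5:**
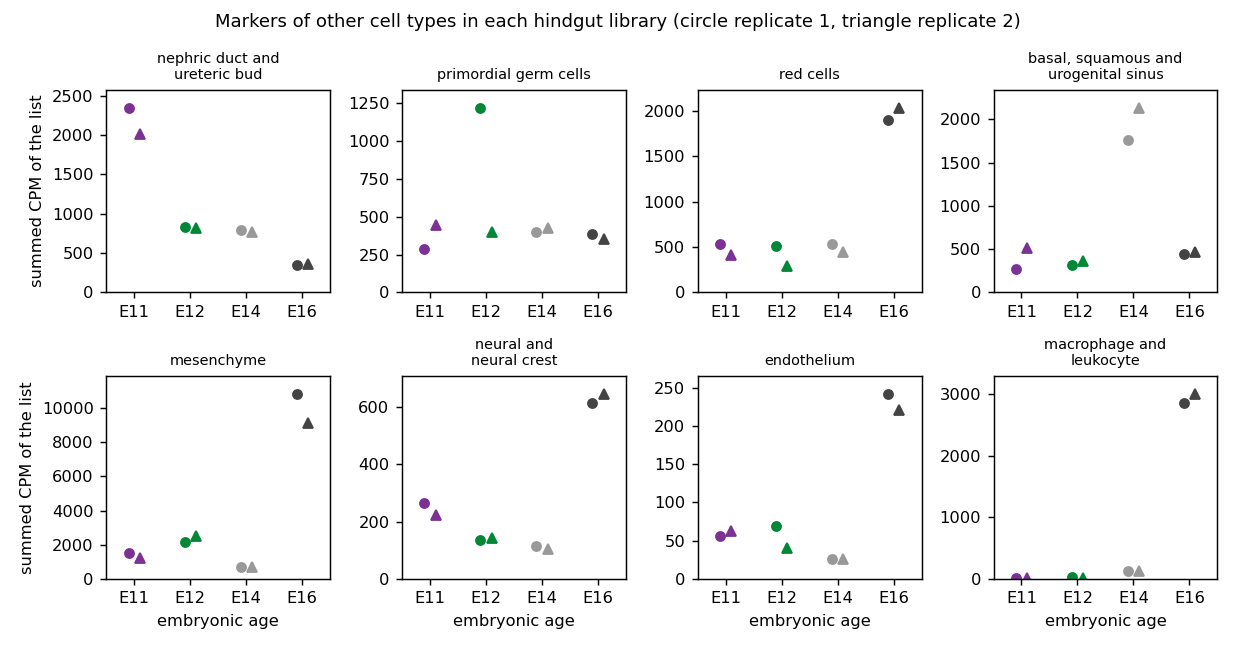
Summed CPM of 8 marker lists (vertical axis, from 0) in each hindgut library at the 4 ages (horizontal axis), with circles for replicate 1 and triangles for replicate 2. The nephric list is lower at E12 than at E11 in both libraries, the germ cell list stands apart in E12 replicate 1 at 1217 CPM, and the mesenchyme, neural, endothelial, red cell and macrophage lists are highest at E16.

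Signalling genes were called in each of 7 lists, against 2.63% called over all genes. In the Wnt pathway, which sustains stem cells of the later crypt, 4 of 23 tested targets and stem cell genes fell and 1 rose. Tcf7, a Wnt effector, fell from 70.9 and 64.5 CPM to 22.9 and 21.9 (log2 -1.60 ± 0.16, adjusted p = 0.00748). Dkk1, a secreted Wnt inhibitor that is itself a Wnt target, fell from 146 and 107 CPM to 12.1 and 8.05 (log2 -3.65 ± 0.41, adjusted p = 0.0123) and was listed at 0 at E14. Tnfrsf19, a receptor of stem cells, fell from 70.5 and 88.1 CPM to 25.4 and 21.6 (adjusted p = 0.0127, and 0.0584 without E12 replicate 2). Ccnd1, cyclin D1, fell from 218 and 277 to 145 and 138 (adjusted p = 0.0229, largest 0.102).

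Smoc2, a matrix gene of crypt stem cells, rose from 31.9 and 41.1 CPM to 135 and 76.0 (adjusted p = 0.0312, largest 0.116). The adult stem cell genes themselves were low. Lgr5 was at 6.20 and 15.5 CPM at E11 and at 6.49 and 4.08 at E12 (adjusted p = 0.307), and Ascl2 at 1.69 and 2.60 against 2.40 and 2.89 (adjusted p = 0.806). Of 36 tested ligands, receptors and inhibitors, 2 fell and 1 rose: the ligand Wnt6 fell from 59.7 and 112 CPM to 8.27 and 1.95 and the inhibitor Sfrp1 from 44.7 and 33.0 to 21.3 and 18.5, while its relative Sfrp2 rose from 51.5 and 54.3 to 86.8 and 109. Their adjusted p were 0.0372, 0.0466 and 0.0229 (largest 0.0812, 0.202 and 0.118).

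Among Hedgehog genes 1 of 18 changed. Ihh, Indian hedgehog, stood at 80.0 and 84.9 CPM at E11 and at 160.2 and 217 at E12 (log2 1.20 ± 0.15, adjusted p = 0.0115, and 0.0657 with 4 libraries). Shh, Sonic hedgehog, was at 312 and 351 against 363 and 383 (adjusted p = 0.516) and fell away later, to 19.96 and 25.9 at E16. In the BMP and TGF-beta list 3 of 45 fell and 1 rose. Id4, a target of BMP, fell from 29.3 and 37.2 CPM to 5.44 and 5.51 (log2 -2.60 ± 0.17, adjusted p = 0.00143). The ligand Bmp5 fell from 6.24 and 8.44 to 1.09 and 1.05, and the pseudoreceptor Bambi from 227 and 293 to 169 and 147 (adjusted p = 0.0326 and 0.0461, largest 0.164 and 0.168). The BMP antagonist Grem1 had no read at E11 and 1.125 and 0.802 CPM at E12, at least 18.4-fold higher (adjusted p = 0.0215, largest 0.24).

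Of 19 tested retinoic acid genes 3 fell and 1 rose. The list held 2 falls with 4 libraries alone and 1 without E16 replicate 1 or without E16 replicate 2. Of the enzymes that make retinoic acid, Aldh1a1 and Aldh1a3 fell: Aldh1a1 went from 27.3 and 27.3 CPM to 3.56 and 3.80 (log2 -2.89 ± 0.27, adjusted p = 0.00516), and Aldh1a3 from 149 and 139 to 7.002 and 0.488 (log2 -5.27 ± 0.89, adjusted p = 0.0301, largest 0.0909). Their relative Aldh1a2 was not called, at 27.4 and 33.1 CPM against 33.5 and 48.1 (adjusted p = 0.307). Stra6, which takes up retinol, fell from 48.4 and 32.2 CPM to 9.69 and 4.43 (adjusted p = 0.0311, largest 0.0934). Rbp4, the carrier of retinol, rose from 183 and 170 CPM to 316 and 360 (log2 0.94 ± 0.12, adjusted p = 0.0115). In the Notch pathway the ligand Dll4 rose from 2.71 and 1.53 CPM to 9.58 and 12.3, and the ligand Jag1 fell from 18.97 and 28.9 to 5.77 and 3.17 (adjusted p = 0.0229 and 0.028, largest 0.164 and 0.0988). Of 26 FGF genes, 1 rose, the phosphatase Dusp4, from 11.5 and 11.1 CPM to 25.3 and 27.1 (adjusted p = 0.0229, largest 0.159).

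Some immediate-early genes, which are switched on within minutes by growth signals and by cell handling, rose at E12. Of 22 tested, 5 rose and none fell, 21 lay above 0, and the median log2 change was 1.25. Junb (chromosome 8, 84976909 to 84978748) stood at 21.3 and 12.2 CPM at E11 and at 102 and 74.8 at E12 (log2 2.40 ± 0.25, adjusted p = 0.00748, and 0.0451 with 4 libraries), and Jun at 222 and 188 against 400 and 412 (log2 0.99 ± 0.12, adjusted p = 0.0122, and 0.0404). These AP-1 subunits passed in both fits. Fos (chromosome 12, 85473890 to 85477274), their partner, was at 35.4 and 5.36 CPM against 269 and 294 (log2 3.80 ± 0.68, adjusted p = 0.0346), and Egr1, a zinc finger factor, at 39.5 and 6.91 against 227 and 273 (adjusted p = 0.0385).

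For Fos and Egr1, E11 replicate 2 was the low library. Both lost the call with 4 libraries (0.124 and 0.134) and without any 1 of the E12, E14 or E16 libraries. Fosb was at 1.05 and 1.40 against 9.90 and 3.90 (adjusted p = 0.0346, largest 0.234). The list held 2 rises with 4 libraries alone and likewise without any 1 of the E14 or E16 libraries, and 10 without E11 replicate 1. The rise went on: Fos stood at 4139 and 4033 CPM and Junb at 2431 and 2213 at E16, and the list summed to 1601 and 1266 CPM at E11, 2666 and 2611 at E12 and 26110 and 24250 at E16. The labels give 1 digestion protocol for all ages, and its part in these levels was not tested.

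The 250 bases before the starts of Fos and Junb are shown, as 2 members of the list that moved together. They are chr12:85473640-85473889, plus strand, and chr8:84978749-84978998, minus strand.
Fos, start 1: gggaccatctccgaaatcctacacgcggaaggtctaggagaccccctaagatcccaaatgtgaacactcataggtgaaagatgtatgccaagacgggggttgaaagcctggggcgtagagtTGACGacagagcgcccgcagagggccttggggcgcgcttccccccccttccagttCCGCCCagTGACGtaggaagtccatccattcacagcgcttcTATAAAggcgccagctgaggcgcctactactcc
Junb, start 1: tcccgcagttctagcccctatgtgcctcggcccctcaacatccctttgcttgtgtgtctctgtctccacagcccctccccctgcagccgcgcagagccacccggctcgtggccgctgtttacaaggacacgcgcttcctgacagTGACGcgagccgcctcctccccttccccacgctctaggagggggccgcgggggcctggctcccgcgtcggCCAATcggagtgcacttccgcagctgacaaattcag
The capitals mark TGACG (the core shared by CRE and ATF sites), GGGCGG (written CCGCCC on the other strand) and TATAAA in Fos, and TGACG and CCAAT in Junb. TGACG was found in 25.2% of all promoters in the table, 25% of those of genes that rose and 17.6% of those that fell. TGANTCA, the AP-1 site itself, was found in 6.48% of promoters of genes that rose, 6.86% of those that fell and 4.81% of all.

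None of 36 tested DNA replication genes was called by edgeR, with 5 at an unadjusted p under 0.05 and 2 called by DESeq2, and 3 of 35 mitotic genes rose, Ccnb1, Kif23 and Kif20a. Ccnb1, cyclin B1, went from 182 and 182 CPM to 259.9 and 261 (log2 0.52 ± 0.08, adjusted p = 0.0255, largest 0.15), and 29 of the 35 lay above 0. None of these 3 kept its call with 4 libraries or without any 1 of the E12, E14 or E16 libraries. Of 29 glycolysis and hypoxia genes 5 fell and none rose, with a median of -0.43: Gapdh went from 1400 and 1551 CPM to 1077 and 1124, and Tpi1 from 1116 and 1415 to 741 and 875 (adjusted p = 0.0414 and 0.0496, largest 0.152 and 0.16). None of the 5 kept its call with 4 libraries alone, and without E11 replicate 1 the list held 14 falls.

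Of 28 imprinted genes that act on growth 3 fell, with 25 below 0 and a median of -0.60. Mest went from 239.8 and 377 CPM to 87.3 and 73.8 (log2 -1.94 ± 0.22, adjusted p = 0.00922), Sgce from 66.8 and 70.1 to 34.1 and 31.9, and the noncoding Kcnq1ot1 from 208 and 209 to 99.99 and 129 (adjusted p = 0.0286 and 0.0463, largest 0.107 and 0.149). Kcnq1ot1 is transcribed antisense within Kcnq1, and with no strand setting stated its reads cannot be told from those of that gene. Igf2, a growth factor, had 904 and 607 CPM against 428 and 401 (adjusted p = 0.0515), and the oncofetal Lin28b 35.0 and 45.1 against 18.5 and 18.1 (adjusted p = 0.125). Of 85 ribosomal protein genes 81 lay below 0, with a median of -0.31, but only Rpl41 was called (adjusted p = 0.0326, largest 0.121), and their summed level was 35030 and 31800 CPM against 28150 and 26030. Among 79 genes of oxidative phosphorylation 70 lay below 0 and 2 fell, of which Cox7b went from 439 and 382 CPM to 223 and 231 (adjusted p = 0.0215, largest 0.0734).

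Further large changes were in genes that carried no description above. Gne, the enzyme that starts sialic acid synthesis, rose from 17.0 and 19.7 CPM to 77.7 and 130.2 (log2 2.501 ± 0.23, adjusted p = 0.00491) and reached 588 and 557 at E14. Ugt2b35, a glucuronidating enzyme, rose from 3.12 and 2.82 CPM to 20.6 and 25.2 (adjusted p = 0.00491). It has close copies beside it, so reads may be split among them and its level is uncertain. Serpinb1a, an inhibitor of proteases, rose from 4.62 and 2.69 CPM to 20.5 and 36.2, and Stambpl1, a deubiquitinase, from 2.78 and 2.31 to 13.8 and 17.2 (adjusted p = 0.00922 and 0.00335, and 0.0667 and 0.0797 with 4 libraries). The matricellular gene Nov (Ccn3 in RefSeq) rose from 3.42 and 2.04 CPM to 13.6 and 31.0, and Tbc1d4, which acts in glucose uptake, from 2.48 and 1.36 to 13.4 and 10.4 (adjusted p = 0.0215 and 0.0142, largest 0.0988 and 0.13).

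The steepest fall was in Klhl14, a gene of the Kelch-like family, from 18.4 and 9.12 CPM to 0.0726 and 0, which is 2 reads at E12. Its ratio of E12 to E11 was 0.00265, with a 95% counting interval of 0.000321 to 0.00961 (adjusted p = 0.0229, and 0.0353 with 4 libraries). Its largest adjusted p, 0.0623, came from leaving out 1 library, the call being lost without E12 replicate 2, E14 replicate 1 or E14 replicate 2. Kremen2, a receptor for Dkk1, fell from 12.02 and 20.9 CPM to 0.798 and 0.488 (log2 -4.67 ± 0.58, adjusted p = 0.0117). The homeobox gene Dlx5 fell from 7.59 and 24.2 CPM to 0.363 and 0, Fev, a factor of serotonin-making cells, from 18.1 and 13.3 to 0.653 and 0.105, and the sterol transporter Abcg5 from 31.6 and 13.1 to 1.71 and 0.383. Their adjusted p were 0.0485, 0.0216 and 0.0326, with largest values of 0.118, 0.0704 and 0.0999. Pou3f3os fell from 18.8 and 19.2 CPM to 1.23 and 0.523 (adjusted p = 0.0215, largest 0.0557), but its symbol names it as the opposite strand of Pou3f3, and with no strand setting stated its reads cannot be told from those of that gene.

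Among the 54 genes called with 4 libraries alone, a further group was named after its values were seen. Arg1, arginase, fell from 264 and 284 CPM to 81.2 and 76.1 (adjusted p = 0.00663 there and 0.00233 with 8 libraries). Amigo2, an adhesion protein, fell from 67.3 and 68.7 CPM to 7.91 and 6.83 (0.00663 and 0.00143), and Fbn2, a fibrillin of embryonic matrix, from 116 and 160.3 to 24.4 and 23.0 (0.011 and 0.0115). Tbx3, a T-box factor, fell from 136 and 135 CPM to 57.4 and 45.4 (0.033 and 0.00607). Among the rises were Ets2, a transcription factor, from 90.8 and 84.3 CPM to 189 and 188 (0.0328 and 0.00491), and Anxa1, annexin A1, from 21.6 and 19.2 to 59.3 and 87.3 (0.0464 and 0.00922). Crabp2, which binds retinoic acid, passed with 4 libraries only, at 227 and 214 CPM against 90.3 and 92.3 (0.0203, against 0.068 with 8 libraries).

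The later ages place these changes in time. In the step from E14 to E16, 20.6% of all tested genes rose and 19% fell. That step shares no E11 or E12 library, but its libraries helped set the spread behind the calls. The shares of called genes that follow are therefore not independent of how those genes were chosen. Of the 290 genes that were higher at E12 than at E11, 113 rose in that step (39%) and 72 fell (24.8%). Of the 144 genes that were lower at E12, 75 rose (52.1%) and 20 fell (13.9%). Over all 16481 genes tested, the highest age by mean level was E16 in 5961, E14 in 3519, E12 in 2704 and E11 in 4297. A gene chosen for being higher at E12 cannot be highest at E11, and one chosen for being lower cannot be highest at E12. Of the rises, 164 of 290 had their highest age at E16, 110 at E14 and 16 at E12. Of the 144, 97 had their highest age at E11, and 42 at E16, among them Cdx1 and Aldh1a1. Markers of mesenchyme, at 10810 and 9147 CPM in sum at E16 against 703 and 693 at E14, and of macrophages, at 2848 and 2993 against 129 and 130.1, were also highest at E16, and their part in these counts was not tested.

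Promoters were in the RefSeq table for 216 of the 290 genes that rose and 102 of the 144 that fell, and for 12868 of the genes tested. Of the 10 motifs searched on both strands in the 250 bases before the start, TATAAA was in 11.1% of promoters of genes that rose and 14.7% of those that fell, against 7.41% of all. CATAAA was in 8.8% and 8.82% against 6.48%, AGATAA in 6.02% and 6.86% against 6.46%, and CCAAT in 32.4% and 32.4% against 35.9%. CAAAGTCCA, an HNF4-type site, was in 0.926% of the promoters of genes that rose which is 2 genes, in none of those that fell and in 0.381% of all. CTTTGAT was in 3.24%, 1.96% and 2.38%. These shares are a description of the windows.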

How the data were processed

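RNA of sorted hindgut epithelium was compared between E12 and E11, with the replicate and age taken from the sample labels. The values are whole-number read counts per gene, deposited without normalization; per the submitters' processing notes the tools named are STAR 2.5.3a, HTSeq, DESeq2 and Cell Ranger 3.0.2 and the builds GRCm38 and mm10. The strand setting and annotation release are not given in the sources used here. The 5 rows that name no gene, 42.9 to 52% of the deposited counts, were left out. Reads on genes numbered 26693704 to 30583908 in the 4 libraries compared, where 3 counts are 0.0974 to 0.113 CPM, and intervals cover counting error only.

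The 8 hindgut libraries were fitted together in edgeR 4.0.16 (R 4.3.3, limma 3.58.1) by group, with TMM scaling, its default low-count filter and the quasi-likelihood F test, and p was adjusted by Benjamini-Hochberg over 16481 genes at 0.05. DESeq2 1.42.0, other scalings and filters, the 4 libraries alone, a replicate block and leaving out each library were the 15 alternatives. On simulated counts for 16481 genes with E12 and E11 compared, 33 of 100 genes changed 2-fold and 75 of 100 changed 4-fold were recovered, and 5 unchanged genes were called. The simulation gave each gene the same spread at all ages. In the data the replicates differed more at E11 and E12 than at E14 and E16. The simulated counts therefore do not show how many unchanged genes are called under that unequal spread.

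The text names the 12 largest rises and falls at a mean of 10 CPM or more in the higher age, up to 6 called genes per list and the 2 most abundant genes of each marker list, besides genes fixed singly. The 41 gene lists and the comparison were chosen with earlier results of these data known. RefSeq entries matched 23902 genes (99.3%). Chromatin and single-cell samples were not analysed here. Some results of the lists are not reported here.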

Additional observations from a re-analysis of the deposited data

How the results depend on the processing

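The number of genes called moved with the libraries used to estimate the spread more than with the scaling. Against 434 called genes (290 higher, 144 lower at E12), the 4 libraries of E11 and E12 alone gave 54 (13 higher, 41 lower), and DESeq2 gave 1491 (858 higher, 633 lower), including all 434. RLE scaling gave 397 and scaling by library size 480, and with no low-count filter 585 and with at least 5 CPM in 2 libraries 508 genes were called. Leaving out 1 library gave 119 to 919 called genes, 69 to 630 higher and 47 to 289 lower, the most without E11 replicate 2 and the fewest without E14 replicate 1. The call count was 704 without E11 replicate 1, 278 without E12 replicate 1, 217 without E12 replicate 2, 122 without E14 replicate 2, 154 without E16 replicate 1 and 135 without E16 replicate 2.

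The replicate block gave 266 called genes (173 higher, 93 lower), 256 of them shared with the fit without it. The same numbers did not pair the samples: deviations of same-numbered libraries had r = -0.067 between E11 and E12 and -0.0514 to 0.0368 between the other ages.

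Of the 93 called named genes, none changed direction in any alternative, and the calls kept were 92 with RLE, 91 with library size, 75 with the block, 26 with 4 libraries and 39 to 79 with 1 library left out. Among named genes that were not called, leaving out 1 library turned the sign of the log2 change in 14. Upk1a ran from -0.011 to 1.00, Fermt1 ran from -0.25 to 0.68, Smtn ran from -0.26 to 0.11 and Podxl ran from -0.48 to 0.20. Ramp2 ran from -0.36 to 0.24, Coro1a ran from -1.48 to 0.51, Cd68 ran from -1.15 to 0.11 and Tfrc ran from -0.053 to 0.42. Hbb-y ran from -3.26 to 0.53, Eif2s3y ran from -0.017 to 0.24 and Dppa3 ran from -1.50 to 1.93. Ddx4 ran from -0.36 to 3.84, Trp63 ran from -2.57 to 0.82 and Ddx3y ran from -0.70 to 0.30. Further turned values were Ramp2 at 0.091 without E11 replicate 1, Cd68 at 0.031 without E12 replicate 2, Tfrc at -0.0084 without E11 replicate 1 and Hbb-y at 0.31 without E11 replicate 1. Sox17 ran from 0 without E12 replicate 1, where it had no read at either age, to 7.08, with no turn of sign. The cause of these shifts was not tested.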
